A study of Mus musculus with 7 samples.

Results

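Glycolysis and the response to low oxygen were followed through 37 genes in RNA precipitated with an antibody to EZH2 from mouse embryonic stem cells. The genes formed 2 groups: 16 glycolytic enzymes and 21 other genes of the low-oxygen response. The members were the counted intervals that lay on the strand of a listed gene, overlapped its span and overlapped no other gene of GENCODE M21. There were 453 such intervals among 303889 in the deposited table, 179 in glycolytic enzymes (119 touching an exon, 60 wholly intronic) and 274 in the other genes (138 and 136). Every listed gene had at least 1 exonic interval, and 12 glycolytic enzymes and 17 other genes also had an intronic one. The intervals had been called on the pooled wild-type libraries, and the genes were listed with earlier results of these data known. Comparisons with wild type are therefore descriptions. Their p-values are not printed, and counts of genes past the test's threshold are set beside the same share of all genes without being used as support.

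The assay was RIP-seq, in which RNA bound by an antibody's target is precipitated and sequenced. The cells were a male CAST/B6 embryonic stem cell line with a cassette-exchange site at Rosa26 (RMCE), grown in DMEM with 15% serum, 5% CO2 and 37 °C, and all groups had received doxycycline for 3 days; what it induced is not stated in the labels. Wild type (WT, n = 3) was the parental line with clones 20 and 44. Cells lacking Ezh2 (EZH2 KO, n = 2) were clones 12 and 19. Cells in which Safb and Safb2 were both deleted (SAFB DKO, n = 2) were clones 13 and 4. EZH2 is the histone methyltransferase of Polycomb repressive complex 2, and SAFB and SAFB2 are 2 related nuclear RNA-binding proteins. The series title states that the antibody, raised against the human protein, also recognises SAFB, so the comparisons ask which precipitated RNA depends on each protein. Because each replicate was a clone or the parental line, the spread between replicates includes differences between clones.

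The WT libraries totalled 21832539, 21051227 and 19024702 counted reads. EZH2 KO libraries were smaller, with 7050832 and 8353603 reads, and those of SAFB DKO had 18738499 and 15812517. The EZH2 KO columns were named by another pattern than the rest. Whether they came from another sequencing run is not stated in the sources used here, and genotype and such a run cannot be told apart. Safb exons held 117 to 245 CPM (counts scaled to library size) in WT and 0.592 to 1.41 in SAFB DKO, and Ezh2 exons 104 to 126 CPM in WT and 0 to 0.601 in EZH2 KO. Stem cell markers summed to 3855 to 4947 CPM in the 7 libraries, with Sox2 the only one of 14 without an exonic interval. Single markers moved both ways. Of 13 tested as described below, exon sums rose in 9 and fell in 3 in SAFB DKO relative to EZH2 KO. They ran from Lin28a (2.07 on the log2 scale) to Zfp42 (-2.06), where 37.1% of all exon sums rose and 28.9% fell. The whole precipitate shifted between groups. Exonic intervals of single genes took 64.5% to 65.7% of WT counts, 57.1% and 55.9% of EZH2 KO counts and 77.1% and 77.9% of SAFB DKO counts. Intronic intervals took 19.2% to 20.4%, 25.5% and 26.5%, and 11.2% and 11.4%. Markers of other cell types were low, apart from neural markers (4 of 8 with an interval), which summed to 195 to 274 CPM in WT, 138 to 158 in EZH2 KO and 79.9 to 80.7 in SAFB DKO, and trophoblast markers (6 of 7), at 62.1 to 86.1, 141 to 160 and 85.7 to 92.7 CPM. Fibroblast (4 of 8), primitive endoderm (5 of 8) and mesoderm markers (3 of 6) summed to at most 19.8 CPM in any library. The defining neural markers Tubb3, Sox1 and Dcx had no exonic interval. The part of these cell types, of clone and of the shift in the whole precipitate in the results below was not tested.

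Glycolysis splits glucose into pyruvate in the cytosol, and lactate dehydrogenase reduces pyruvate to lactate so that the pathway can go on without oxygen. When oxygen falls, prolyl hydroxylases stop marking the HIF alpha subunits for destruction, and HIF dimers bind the letters ACGTG near glucose transporters, glycolytic enzymes and many other genes. Naive mouse embryonic stem cells use both glycolysis and mitochondrial respiration.

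The short letters that HIF reads are shown here because many of the listed genes are known HIF targets. Promoter sequences (RefSeq, build GRCm38.p6) were found for all 16 glycolytic enzymes and for 17 of the 21 other genes, and ACGTG was sought on both strands in the 250 bases before each start. It was present at any start for 7 of 16 glycolytic enzymes (43.8%), 13 of 17 other genes (76.5%) and 18.5% of 27025 genes in the same table. Genes differ in their number of starts, and counted per start the shares were 33.3%, 60% and 16.6%. Some windows overlapped annotated exons, and a match there counted like any other. Vegfa is among the 13 genes only through a window with 218 of its 250 bases in exons, and its other window had no match. Below, ACGTG and its reverse complement CACGT are in capitals, and a run of CACGTG holds both, overlapping. Ldha has the most matches among the listed genes, Pgk1 is a further glycolytic gene with more than 1 match, and Ankrd37 and Slc16a3 are genes of the other group with 2 matches each.
Ldha, chr7:46845554-46845803, plus strand: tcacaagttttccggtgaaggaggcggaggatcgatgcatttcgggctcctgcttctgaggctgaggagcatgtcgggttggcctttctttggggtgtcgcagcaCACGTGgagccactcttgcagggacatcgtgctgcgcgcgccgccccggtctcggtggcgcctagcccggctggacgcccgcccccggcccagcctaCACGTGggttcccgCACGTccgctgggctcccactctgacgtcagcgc
Pgk1, chrX:106186850-106187099, plus strand: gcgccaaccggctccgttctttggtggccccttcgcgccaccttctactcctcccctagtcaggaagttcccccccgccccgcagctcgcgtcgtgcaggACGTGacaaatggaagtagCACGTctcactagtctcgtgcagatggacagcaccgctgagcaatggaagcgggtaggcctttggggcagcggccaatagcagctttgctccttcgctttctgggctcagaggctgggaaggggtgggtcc
Ankrd37, chr8:45999851-46000100, minus strand: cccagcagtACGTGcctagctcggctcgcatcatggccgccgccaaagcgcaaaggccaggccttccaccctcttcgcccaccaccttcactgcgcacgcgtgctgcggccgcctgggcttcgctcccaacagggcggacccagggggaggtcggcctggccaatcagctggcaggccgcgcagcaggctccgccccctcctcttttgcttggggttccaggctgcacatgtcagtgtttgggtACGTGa
Slc16a3, chr11:120948817-120949066, plus strand: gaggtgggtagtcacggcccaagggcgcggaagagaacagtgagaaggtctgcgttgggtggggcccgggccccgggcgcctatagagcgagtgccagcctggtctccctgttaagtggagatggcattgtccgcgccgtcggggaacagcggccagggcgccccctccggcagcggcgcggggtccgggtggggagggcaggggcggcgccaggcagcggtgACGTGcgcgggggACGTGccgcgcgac
A match shows only that the letters are there, and letters other than these were not sought. Among glycolytic enzymes the median exon change, SAFB DKO minus EZH2 KO, was 2.19 on the log2 scale for the 7 genes with the letters and 1.94 for the 9 without. Among the other genes it was 1.81 for 13 with the letters, 0.97 for 4 without and 2.09 for 4 not in the promoter table. For SAFB DKO minus WT, the medians of glycolytic enzymes were 1.15 with the letters and 1.17 without. Those of the other genes were 0.90 with the letters, 0.19 without and 0.91 for genes not in the promoter table.

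Exonic RNA of glycolytic enzymes took the largest share of counts in SAFB DKO and the smallest in EZH2 KO. Their exonic intervals took 0.149%, 0.193% and 0.157% of all counts in the WT libraries, 0.0755% and 0.0621% for EZH2 KO and 0.438% and 0.360% for SAFB DKO, so the 3 groups did not overlap. The other low-oxygen genes showed the same order with a smaller spread, at 0.0725%, 0.109% and 0.0758% in the WT libraries, 0.0491% and 0.0449% in the EZH2 KO pair and 0.171% and 0.158% in the SAFB DKO pair. In bulk RNA, fewer cells with a transcript and less RNA per cell cannot be told apart, and the amount precipitated cannot be told apart from the amount in the cell, since no input libraries were used here. A few genes carried most reads. Pkm, Aldoa and Hk2 or Ldha made up 57.4% to 62.9% of the glycolytic exon reads in every library.

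Summed over the exonic intervals of each gene, 15 of 16 glycolytic enzymes and 16 of 21 other genes rose in SAFB DKO relative to EZH2 KO, and none fell (edgeR quasi-likelihood F-test, Benjamini-Hochberg adjusted p under 0.05 over all genes). The intervals were called on WT, the WT libraries enter the fit through its filter, scaling and estimate of spread, and the genes were chosen knowing results from the same knockouts, so this comparison is not independent support. Over all 15252 exon sums 37.1% rose and 28.9% fell. The median change was 2.11 and 1.74 on the log2 scale in the 2 groups, against 0.26 over all genes. That of the other low-oxygen genes was 1.15 without EZH2 KO replicate 1. Against WT, 14 of 16 and 14 of 21 rose in SAFB DKO and none fell (medians 1.16 and 0.78), where 20.0% of all exon sums rose, 21.8% fell and the median was 0.07. In EZH2 KO, 10 of 16 and 9 of 21 fell and none rose relative to WT (medians -0.99 and -0.88), where 27.3% of all fell, 18% rose and the median was -0.19. Both SAFB DKO libraries lay above all WT libraries for 14 of 16 and 17 of 21 genes, against 37.9% of all genes, and both EZH2 KO libraries below all WT libraries for 14 and 12, against 40.2%. The 2 comparisons with WT share the WT libraries. The count of other low-oxygen genes that rose against WT was 8 without SAFB DKO replicate 1.

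**Figure D1:**
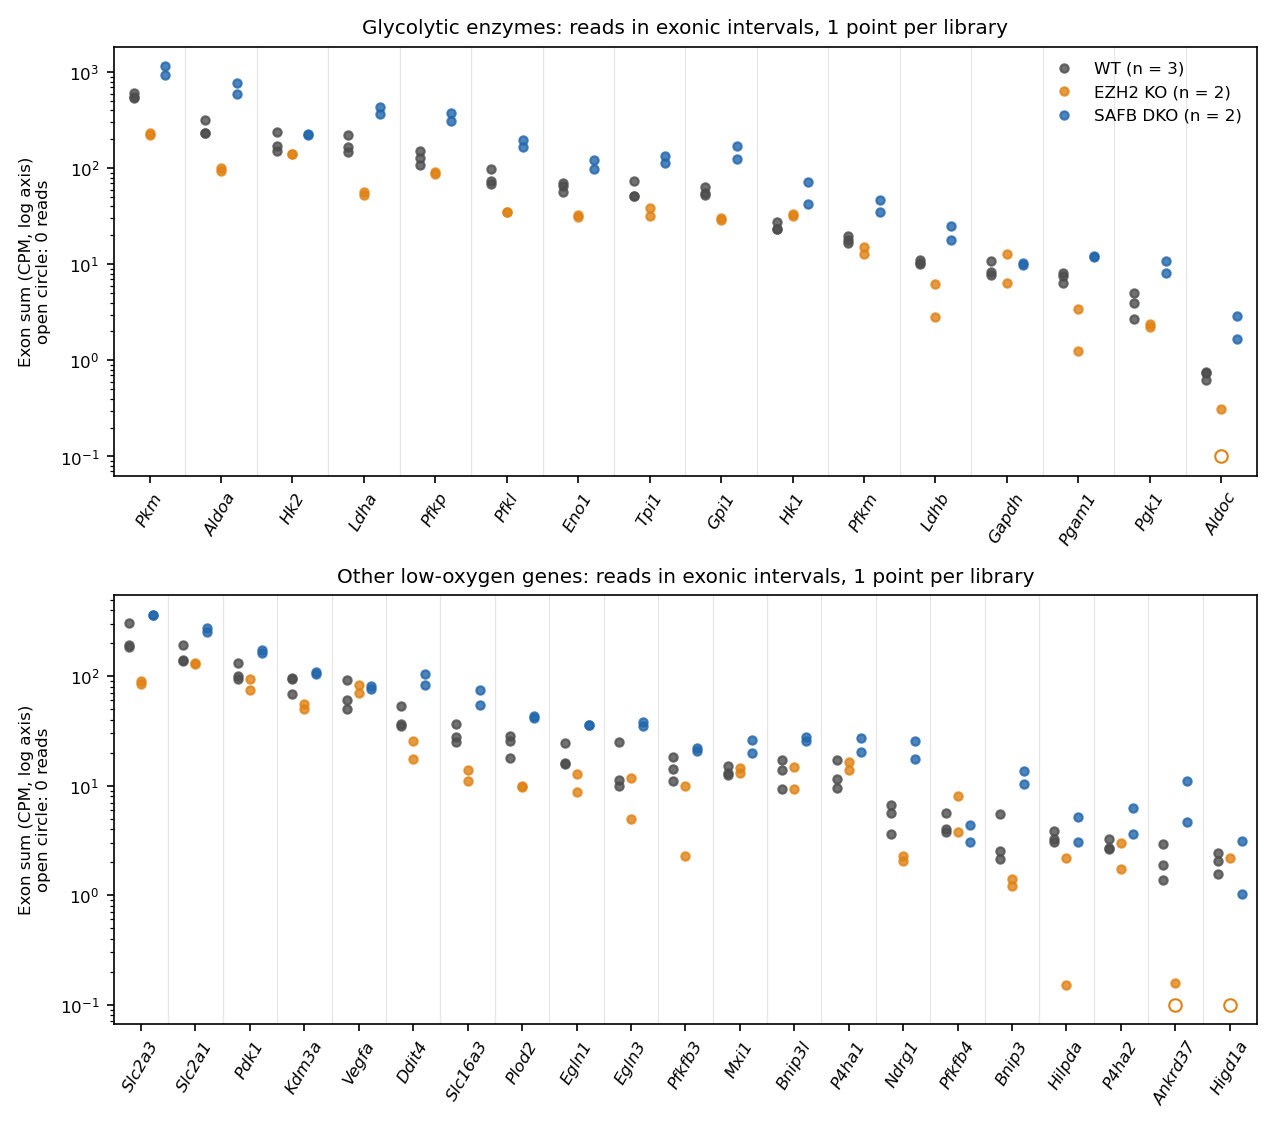
Exon sums of the 16 glycolytic enzymes and the 21 other low-oxygen genes, in CPM on a log axis, with 1 point per library and genes ordered by their WT mean; open circles mark libraries with 0 reads, drawn at the bottom. SAFB DKO points lie above all WT points for 14 of 16 glycolytic enzymes and 17 of 21 other genes.

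By level per kilobase of exonic interval, averaged over the libraries, Pkm led the glycolytic enzymes (182 CPM per kb), followed by Ldha (135), Aldoa (97.1) and Tpi1 (31.5). Pkm (chr9:59656368-59679375, mm10) encodes the pyruvate kinase that makes pyruvate in the last step. Its exon sums were 551, 602 and 545 CPM for WT, 222 and 234 for EZH2 KO and 1146 and 932 for SAFB DKO. The groups did not overlap, and SAFB DKO exceeded EZH2 KO by 2.19 ± 0.14 on the log2 scale (SE; adjusted p = 2.97e-08, edgeR). Ldha (chr7:46841475-46855627), the main lactate dehydrogenase subunit of glycolytic cells, held 149, 221 and 168 CPM across WT, 52.9 and 56.8 across EZH2 KO and 430 and 366 across SAFB DKO. Here too the 3 groups were separate, with a difference of 2.86 ± 0.20 (adjusted p = 4.18e-08, edgeR). Aldoa (chr7:126795234-126809108), the aldolase that splits fructose bisphosphate, held 234, 315 and 233 CPM in the WT libraries, 101 and 93.3 in the EZH2 KO pair and 774 and 588 in the SAFB DKO pair (difference 2.81 ± 0.19, adjusted p = 3.98e-08, edgeR). Tpi1 (chr6:124810586-124814296), which interconverts the 2 triose phosphates, held 51.9, 72.9 and 50.9 CPM for WT, 31.7 and 38.4 for EZH2 KO and 133 and 113 for SAFB DKO (difference 1.81 ± 0.21, adjusted p = 4.56e-06, edgeR). In both genes all SAFB DKO libraries exceeded all others.

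The 3 phosphofructokinases, which catalyse the committed step, all rose: Pfkl by 2.37 ± 0.20, Pfkp by 1.94 ± 0.18 and Pfkm by 1.55 ± 0.22 on the log2 scale. Gpi1, Eno1, Ldhb, Pgam1 and Pgk1 rose by 1.79 to 2.35. The hexokinases, which trap glucose in the cell, rose least. Hk1 differed by 0.80 ± 0.23 (adjusted p = 0.00864, edgeR) and Hk2 by 0.68 ± 0.19 (adjusted p = 0.00676, edgeR). Without SAFB DKO replicate 1 Hk1 was not called (0.41, adjusted p = 0.128, edgeR). Hk2 held 153, 239 and 169 CPM across WT, 142 and 141 across EZH2 KO and 222 and 230 across SAFB DKO, so that the SAFB DKO values lay within the WT range. Hk1 (23.2, 27.7 and 23.3 CPM in WT) was the one glycolytic enzyme whose EZH2 KO libraries, at 31.7 and 33.8 CPM, both lay above WT.

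Aldoc had the largest fitted exon rise, from few reads: 16, 16 and 12 in the WT libraries, 0 and 2 in the EZH2 KO pair and 63 and 31 in the SAFB DKO pair. The ratio of SAFB DKO to EZH2 KO was 15.1, with a 95% exact counting interval of 4.07 to 127. Gapdh, the glycolytic dehydrogenase often used as a reference transcript, was the one enzyme not called. Its single exonic interval held 8.23, 7.67 and 10.7 CPM for WT, 12.8 and 6.45 for EZH2 KO and 9.90 and 10.4 for SAFB DKO, and the 3 ranges overlapped (difference 0.07 ± 0.32, adjusted p = 0.853, edgeR). With a further interval of Gapdh counted as exonic, as the full annotation has it, an alternative added after the data were seen, the difference was 0.65 ± 0.17 (adjusted p = 0.00503, edgeR). Gapdh, Pgk1, Pgam1, Aldoa and Ldha have near-identical processed copies elsewhere in the genome, and reads shared with them may be missing from the counts.

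Among the other low-oxygen genes, the glucose transporters led. Slc2a1 (GLUT1, chr4:119108711-119137983) averaged 69.6 CPM per kb, Slc2a3 (GLUT3, chr6:122727809-122801640) 34.8, the mTORC1 inhibitor Ddit4 (chr10:59949669-59951834) 27.3 and the angiogenic factor Vegfa (chr17:46016993-46032369) 22.2. Slc2a1 exon sums were 136, 193 and 140 CPM across WT, 129 and 132 across EZH2 KO and 274 and 251 across SAFB DKO. SAFB DKO stood above both other groups, by 1.01 ± 0.17 over EZH2 KO (adjusted p = 0.000197, edgeR). Slc2a3 exon sums were 194, 304 and 184 CPM in the WT libraries, 89.6 and 84.4 in the EZH2 KO pair and 365 and 363 in the SAFB DKO pair. The groups were separate, and the difference was 2.06 ± 0.21 (adjusted p = 1.99e-06, edgeR). Ddit4, which has only an exonic interval, held 34.8, 53.6 and 36.5 CPM for WT, 17.6 and 25.6 for EZH2 KO and 105 and 82.7 for SAFB DKO (difference 2.12 ± 0.25, adjusted p = 6.43e-06, edgeR), and the 3 groups were separate. Vegfa was the exception among the 4. It held 60.9, 91.3 and 49.96 CPM across WT, 70.8 and 82.4 across EZH2 KO and 81.7 and 76.4 across SAFB DKO, all ranges overlapped, and the difference was 0.05 ± 0.23 (adjusted p = 0.874, edgeR).

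Ankrd37, an ankyrin repeat protein and low-oxygen target, had the largest fitted exon rise. Its reads numbered 30, 62 and 36 in the WT libraries, 0 and 1 in the EZH2 KO pair and 239 and 86 in the SAFB DKO pair, and the ratio of SAFB DKO to EZH2 KO was 104 with a counting interval of 18.6 to 4136. Ndrg1, a stress-responsive gene, held 3.63, 6.59 and 5.59 CPM for WT, 2.26 and 2.04 for EZH2 KO and 25.7 and 17.5 for SAFB DKO (difference 3.33 ± 0.38, adjusted p = 4.69e-06, edgeR). For both genes the 3 groups did not overlap. Bnip3 and Bnip3l, mitophagy receptors, rose by 3.18 ± 0.52 and 1.16 ± 0.30. Slc16a3, the lactate exporter MCT4, rose by 2.39 ± 0.25. Egln1 and Egln3, prolyl hydroxylases that sense oxygen, rose by 1.74 ± 0.27 and 2.15 ± 0.44, and Pdk1, which holds pyruvate back from the mitochondrion, by 0.99 ± 0.18. Rises were also called for Plod2, a collagen lysyl hydroxylase (2.11 ± 0.24), Hilpda, a lipid droplet protein (1.81 ± 0.66), Pfkfb3 (1.81 ± 0.43), Kdm3a, a histone H3 lysine demethylase (1.01 ± 0.18), and Mxi1 (0.74 ± 0.22). Hilpda was not called without WT replicate 3 (1.78), EZH2 KO replicate 1 (0.95) or SAFB DKO replicate 2 (1.43), and its change was 4.76 without EZH2 KO replicate 2. Mxi1 was not called without SAFB DKO replicate 1 (0.59), and the Pfkfb3 change was 1.15 and 3.28 without EZH2 KO replicates 1 and 2. The genes not called besides Vegfa were Higd1a (0.95 ± 0.90), Pfkfb4 (-0.66 ± 0.41), P4ha1 (0.64 ± 0.28) and P4ha2 (1.05 ± 0.44). Both P4ha genes passed under each other scaling, with 0.86 to 1.11 and 1.26 to 1.49, and Vegfa under column totals (0.52). P4ha1 and P4ha2 encode collagen prolyl hydroxylase subunits and Pfkfb4 a bifunctional enzyme that sets the level of a phosphofructokinase activator.

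WT replicate 2 was the highest WT library for 13 of 16 glycolytic enzymes and 19 of 21 other genes, against 32.0% of all exon sums. Within SAFB DKO, replicate 1 exceeded replicate 2 for 13 and 18 genes, against 48.0% of all. The libraries within a genotype thus also differed in these genes, and the members are not independent of one another.

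Intronic RNA of the same genes divided. In SAFB DKO relative to EZH2 KO, intron sums rose in 8 and fell in 2 of 12 glycolytic enzymes, and rose in 3 and fell in 4 of 17 other genes, whereas 8.23% of all 9889 intron sums rose and 50.3% fell. The medians were 1.01 and -0.05, against -1.23 over all genes. Under column totals the other low-oxygen genes split into 5 that rose and 3 that fell with a median of 0.41, under DESeq2 into 4 and 3 (0.23), and under TMM factors over all features into 3 and 3 (0.16), so the sign of that median changed with scaling. Single libraries moved it as well: without SAFB DKO replicate 2, 4 rose and 3 fell with a median of 0.50, and without EZH2 KO replicate 2, 5 rose and 3 fell (-0.02). Against WT, 2 rose and 1 fell of 12, and 2 rose and 2 fell of 17, in SAFB DKO, where 0.839% of all rose and 45.1% fell. The split of the 17 became 3 and 2 under column totals and under DESeq2, and 0 and 2 without SAFB DKO replicate 1. In EZH2 KO 2 rose and 6 fell of 12, and 2 rose and 1 fell of 17, where 26.8% of all rose and 9.12% fell.

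**Figure D2:**
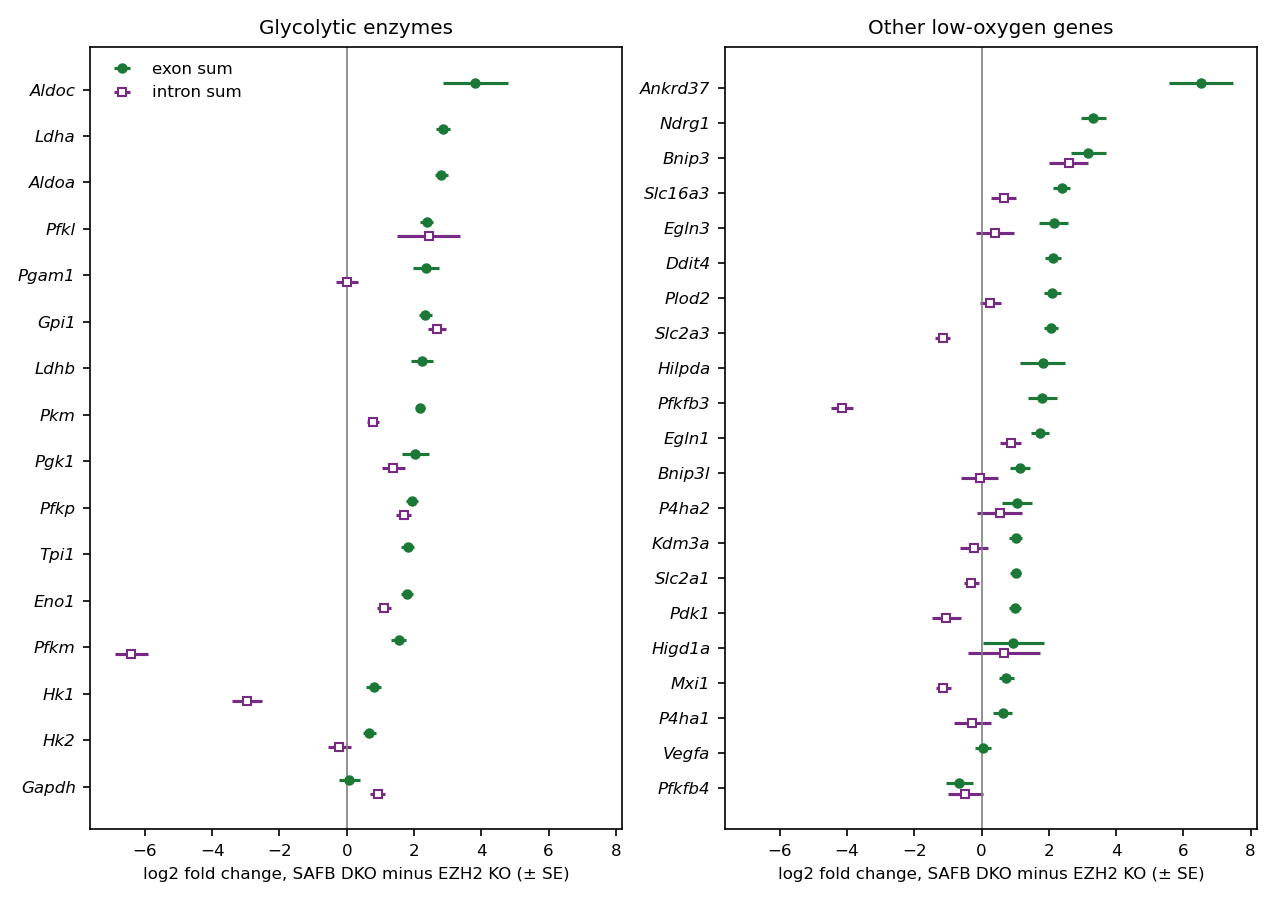
Change of exon sums (filled circles) and intron sums (open squares) between SAFB DKO and EZH2 KO for each gene, on the log2 scale with SE from the edgeR fit, glycolytic enzymes on the left and other low-oxygen genes on the right; genes without intronic intervals, and the 2 genes with no intronic read in EZH2 KO, have no square. Exon changes lie above 0 for all genes but Pfkfb4, while the squares of Pfkm, Hk1, Pfkfb3, Slc2a3, Mxi1 and Pdk1 lie below 0 and those of Gpi1, Bnip3 and Pfkp well above it.

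Pfkm, the muscle-type phosphofructokinase, had the largest fall. Its intron sums were 5.10, 5.04 and 5.01 CPM across WT, 11.1 and 11.2 across EZH2 KO and 0.0456 and 0.215 across SAFB DKO, a change of -6.40 ± 0.50 from EZH2 KO (adjusted p = 1.41e-07, edgeR). Its exon sums went the other way, from 15.0 and 12.7 CPM in EZH2 KO to 46.5 and 34.7 in SAFB DKO. Most intronic reads of WT and EZH2 KO came from 1 peak of the authors' short list at chr15:98101956-98103621, 9.37 to 11.03 kb from the outermost start of the gene. This peak held 97, 78 and 73 reads in the WT libraries, 64 and 68 in the EZH2 KO pair and 1 and 0 in the SAFB DKO pair. EZH2 KO exceeded SAFB DKO there by a ratio of 411 (95% exact counting interval 72.5 to 16350). Of the 4 Pfkm starts in the RefSeq table, 1 lies before the peak and 3 after it.

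Hk1 intron sums were 6.16, 8.71 and 4.65 CPM for WT, 27.7 and 23.4 for EZH2 KO and 5.02 and 1.40 for SAFB DKO. EZH2 KO stood above both other groups, and the change from it to SAFB DKO was -2.97 ± 0.45 (adjusted p = 6.58e-05, edgeR). Pfkfb3 (chr2:11471433-11554077), a bifunctional enzyme that sets the level of the phosphofructokinase activator, fell from 19.2 and 26.3 CPM in EZH2 KO to 1.60 and 0.915 in SAFB DKO, with 10.8, 10.8 and 9.03 in WT. The change was -4.15 ± 0.32 (adjusted p = 1.33e-07, edgeR), and the groups did not overlap. It has 2 short-list peaks. The one at chr2:11538570-11539617 held 92, 48 and 52 reads across WT, 42 and 50 across EZH2 KO and 3 and 0 across SAFB DKO, a ratio of EZH2 KO to SAFB DKO of 95.5 (31.7 to 471). The one at chr2:11546885-11548732 held 81, 97 and 57 reads in the WT libraries, 45 and 78 in the EZH2 KO pair and 21 and 12 in the SAFB DKO pair (-3.54 ± 0.45, adjusted p = 1.04e-05, edgeR). Both lie between the 2 RefSeq starts of Pfkfb3, within 15.5 kb of the outermost start of the gene.

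**Figure D3:**
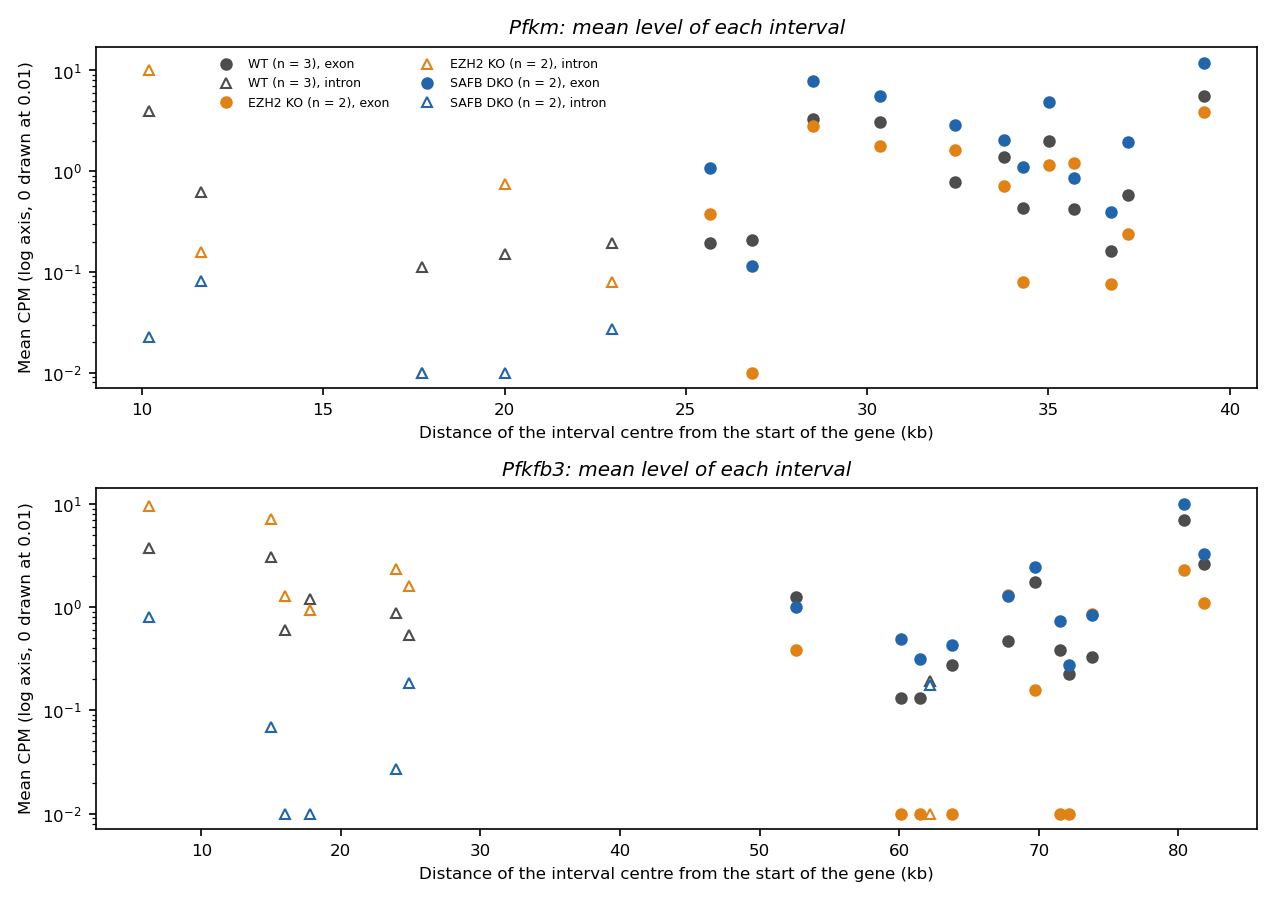
Mean CPM of each counted interval along Pfkm (top) and Pfkfb3 (bottom) on a log axis, against the distance of its centre from the outermost start of the gene; filled circles are exonic and open triangles intronic intervals, and means of 0 are drawn at 0.01. SAFB DKO triangles near the start lie far below those of the other groups, and most SAFB DKO circles farther along lie above them.

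The other short-list peaks fell less or not at all. Mxi1, a MAX-binding antagonist of MYC, has one at chr19:53337394-53338476 with 80, 158 and 67 reads for WT, 115 and 130 for EZH2 KO and 54 and 36 for SAFB DKO (-3.09 ± 0.39 from EZH2 KO, adjusted p = 8.79e-06, edgeR). Summed over its 20 intronic intervals, Mxi1 held 16.7, 23.8 and 15.3 CPM across WT, 36.1 and 43.1 across EZH2 KO and 18.8 and 17.2 across SAFB DKO, so that EZH2 KO stood apart and the other groups overlapped (-1.14 ± 0.23, adjusted p = 0.000705, edgeR). Without the listed peaks the Mxi1 change was -0.28 and was not called. Slc2a3 has one at chr6:122754753-122755306 with 53, 53 and 17 reads in the WT libraries, 0 and 3 in the EZH2 KO pair and 0 and 10 in the SAFB DKO pair. There both knockouts were low and did not differ beyond their spread (0.14 ± 1.49, adjusted p = 0.9502, edgeR). The sum over its 17 intronic intervals was 30.3, 38.2 and 24.2 CPM for WT, 28.4 and 27.8 for EZH2 KO and 12.0 and 13.3 for SAFB DKO (-1.15 ± 0.23 from EZH2 KO, adjusted p = 0.000576, edgeR).

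The rises came from other introns. Gpi1 (glucose-6-phosphate isomerase) had the highest intronic level of all listed genes, 254, 431 and 283 CPM across WT, 110 and 154 across EZH2 KO and 1003 and 695 across SAFB DKO (2.69 ± 0.26, adjusted p = 1.07e-06, edgeR). Its exon sums rose by 2.34 ± 0.19, and the 3 groups were separate in both. Nearly all of this lay in the interval chr7:34208480-34213781, of which 36.5% is exonic in retained-intron and nonsense-mediated-decay transcripts of the full GENCODE M21 annotation. The Pfkp interval chr13:6594020-6596014 is likewise wholly exonic in such transcripts. Pfkp introns held 24.3, 36.9 and 28.8 CPM in the WT libraries, 21.3 and 28.6 in the EZH2 KO pair and 87.6 and 74.3 in the SAFB DKO pair (1.70 ± 0.22, adjusted p = 1.78e-05, edgeR). Pkm introns held 48.7, 59.0 and 62.0 CPM for WT, 31.3 and 34.9 for EZH2 KO and 61.3 and 52.6 for SAFB DKO, which lay within the WT range (0.78 ± 0.18 from EZH2 KO, adjusted p = 0.00171, edgeR). Altogether 16 of 196 intronic members overlapped an exon of the full annotation. With that annotation 6 rose and 2 fell of 10 glycolytic enzymes, and 3 rose and 4 fell of 15 other genes, an alternative added after the data were seen.

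Bnip3 introns held 4.32, 13.1 and 3.39 CPM across WT, 3.01 and 5.35 across EZH2 KO and 31.9 and 18.2 across SAFB DKO (2.59 ± 0.58, adjusted p = 0.00159, edgeR), and its WT libraries were widely spread. Ndrg1 introns had 8, 20 and 12 reads in the WT libraries, none in the EZH2 KO pair and 62 and 28 in the SAFB DKO pair. The observed SAFB DKO level was 9.64-fold above a floor of 3 counts over the EZH2 KO group. Of these introns, the interval chr15:66934719-66935044 is wholly exonic in a retained-intron transcript of the full annotation. Ldhb introns had 8, 24 and 10 reads for WT, none for EZH2 KO and 11 and 18 for SAFB DKO, 3.11-fold above the same floor. Slc2a1, with the highest intronic level among the other genes, held 63.7, 92.4 and 61.6 CPM across WT, 80.0 and 108 across EZH2 KO and 86.6 and 65.9 across SAFB DKO. The groups overlapped (-0.30 ± 0.22, adjusted p = 0.250, edgeR). The remaining called introns were those of Pfkl (2.44 ± 0.93), Pgk1 (1.39 ± 0.35), Eno1 (1.10 ± 0.21), Gapdh (0.92 ± 0.22) and Egln1 (0.87 ± 0.31), which rose, and of Pdk1 (-1.05 ± 0.43), which fell. The Gapdh interval counted here as intronic, chr6:125163533-125165114, is wholly exonic in the full annotation. Some of the calls of these remaining introns and of Ldhb rested on single libraries. Pfkl was called in 1 of the 7 fits that left out a library, without EZH2 KO replicate 1 (7.94), and its other values ran from 1.53 to 2.62. Egln1 was not called without SAFB DKO replicate 1 (0.77), nor Pdk1 without WT replicate 1 (-1.08), EZH2 KO replicate 2 (-0.49) or SAFB DKO replicate 2 (-0.64) or under any of the 3 other scalings, nor Ldhb without either EZH2 KO library or SAFB DKO replicate 2.

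Within a gene, the intronic share of its reads does not depend on library scaling. Set against the exons of the same gene, introns fell in SAFB DKO relative to EZH2 KO in 6 of 12 glycolytic enzymes and 10 of 17 other genes and rose in none, where 51.2% of all 7670 genes tested fell and 10.7% rose. These shares lay near those of all genes. Without EZH2 KO replicate 2, 5 glycolytic enzymes fell and 2, Gpi1 (0.57) and Gapdh (1.60), rose; with bias-adjusted deviances in edgeR, an alternative added after the data were seen, 6 fell and Gapdh rose (0.85). Against WT they fell in 4 and 9 in SAFB DKO (42.5% of all fell, 5.24% rose) and rose in 4 and 6 in EZH2 KO (26.9% of all rose, 8.03% fell). The 9 became 4 without WT replicate 1, 4 without WT replicate 2 and 3 without SAFB DKO replicate 2, and the 4 in EZH2 KO became 2 without WT replicate 1. Pfkm introns took 23.6%, 21.97% and 20.2% of the gene's reads in the WT libraries, 42.5% and 46.7% in the EZH2 KO pair and 0.0979% and 0.616% in the SAFB DKO pair (log2 change of intron over exon -7.97 ± 0.53, SAFB DKO minus EZH2 KO, adjusted p = 5.36e-08, edgeR). Pfkfb3 introns took 49.6%, 37.0% and 38.9% for WT, 89.5% and 72.6% for EZH2 KO and 6.81% and 4.26% for SAFB DKO (-6.15 ± 0.55, adjusted p = 6.5e-07, edgeR). In both genes the 3 groups were fully separate. Slc2a3 moved from 24.1% and 24.8% in EZH2 KO to 3.18% and 3.53% in SAFB DKO (-3.22 ± 0.19, adjusted p = 1.95e-08, edgeR), and Hk1 from 46.6% and 40.9% to 6.54% and 3.23% (-3.89 ± 0.37, adjusted p = 1.16e-06, edgeR). Gpi1 and Pfkp did not pass the test with all libraries: Gpi1 introns took 79.4% to 87.0% of reads and Pfkp introns 18.5% to 23.8% over all 7 libraries. Their exon and intron sums had changed by similar amounts.

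**Figure D4:**
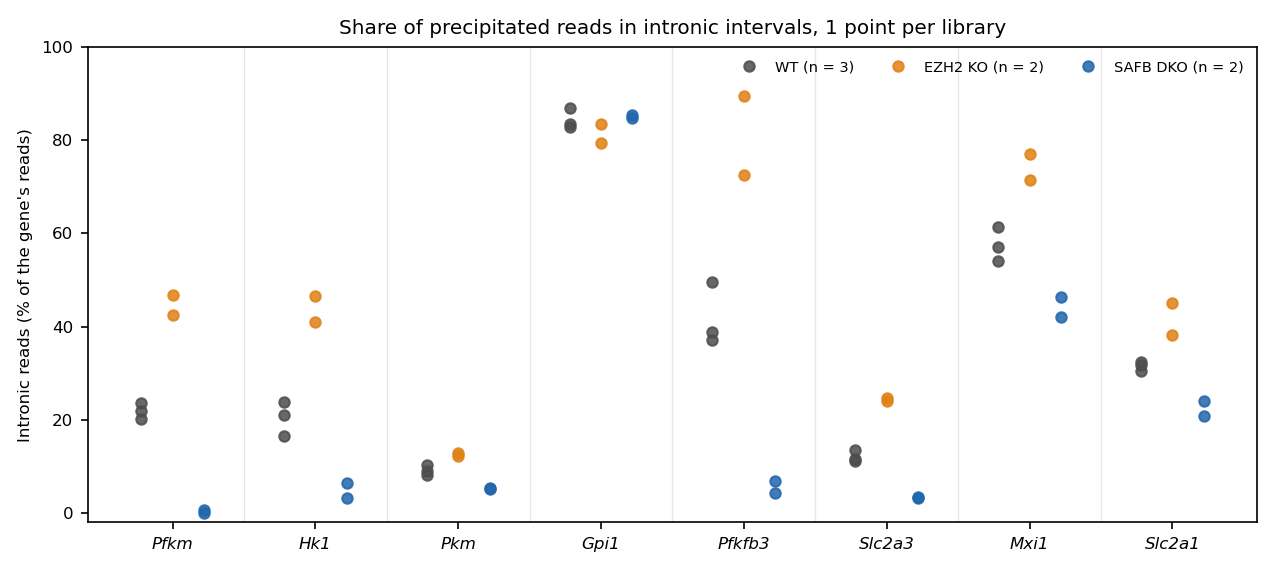
Intronic reads as a percent of all reads of the gene, with 1 point per library, for 4 glycolytic enzymes and 4 other low-oxygen genes described in the text. SAFB DKO lies below WT and EZH2 KO above it for Pfkm, Hk1, Pkm, Pfkfb3, Slc2a3, Mxi1 and Slc2a1, whereas Gpi1 stays between 79.4% and 87.0%.

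As single intervals, 83 of 116 tested exonic members of glycolytic enzymes and 64 of 115 of the other genes rose in SAFB DKO relative to EZH2 KO, with 0 and 1 falling, where 29.5% of all 80602 exonic intervals rose and 9.97% fell. Of the intronic members, 17 of 46 and 10 of 91 rose and 5 and 15 fell, where 7.83% of all rose and 26.5% fell. The remaining members were too low to be tested. Intervals of the same gene are not independent, and genes with many intervals weigh more in these counts than in the gene sums. The highest exonic intervals were in Pkm (chr9:59678710-59679369, 208, 225 and 216 CPM in WT, then 86.1 and 81.6 in EZH2 KO, then 403 and 374 in SAFB DKO) and Aldoa (chr7:126795234-126796290, 149, 201 and 150, then 68.0 and 59.9, then 469 and 387). Among the other genes they were in Slc2a3 (chr6:122727859-122730137, 133, 204 and 129, then 48.7 and 41.7, then 256 and 260) and Slc2a1 (chr4:119136254-119137624, 102, 143 and 107, then 108 and 110, then 196 and 187). SAFB DKO was highest in each of these 4, and EZH2 KO lay below WT in all but Slc2a1. The 2 highest intronic intervals of the other genes were both in Slc2a1. The one at chr4:119121038-119123388 held 23.4, 30.4 and 20.6 CPM across WT, 23.8 and 30.7 across EZH2 KO and 28.7 and 21.1 across SAFB DKO, and the one at chr4:119110829-119112518 held 8.59, 13.98 and 7.67, then 15.6 and 23.3, then 12.8 and 10.01. The first overlapped between all groups. Only 13 of the 453 members, 11 of them intronic, belonged to the authors' filtered list, 2.87% against 7.14% of all intervals of single genes. The median GC content of exonic bases was 54.8% over 101 exonic members of glycolytic enzymes and 50% over 118 of the other genes. Over 87684 exonic intervals of all genes it was 50.3%. Intervals with few exonic bases were left out of each of these sets.

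Neighbouring pathways were read through lists of genes kept apart from the members. Of all exon sums, 37.1% rose and 28.9% fell in SAFB DKO relative to EZH2 KO. In that comparison exon sums rose in all 20 citric acid cycle genes tested (median 1.80; highest Suclg2, a succinyl-CoA ligase subunit, at 3.04 ± 0.36). Of 16 genes of pyruvate and lactate handling 11 rose and 3 fell, from Me2 (malic enzyme, 2.03 ± 0.28) to the pyruvate carrier subunit Mpc1 (-2.71 ± 0.66). Of 10 pentose phosphate genes 8 rose and 2 fell, from Rpia (3.70 ± 0.81) to Pgls (-1.26 ± 0.21). Of 15 oxygen-sensing genes 11 rose and 2 fell, from the elongin subunit Eloc (2.76 ± 0.52) to Cited2 (-1.11 ± 0.25), a CBP/p300-binding inhibitor of HIF. The remaining glycolysis genes were mixed, with 5 rising and 4 falling of 16, from Pgm2 (1.86 ± 0.31) to Pfkfb1 (-2.48 ± 0.24), and of 36 further low-oxygen genes 21 rose and 3 fell, with the largest rise in Bhlhe41 (3.63 ± 1.45).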

How the data were processed

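RNA precipitated with an EZH2 antibody was measured in 7 libraries (9 µL of each precipitate, with 1 µL of ERCC spike-in, after ribosomal RNA depletion, per the labels' protocols). The deposited values are raw counts per interval in mm10, made by the authors with featureCounts 2.0.3 at strand setting 2 (reverse), per the file headers. For alignment and peak calling, the tools are not given in the sources used here. A further 3 value columns, named after a control antibody, were not used here.

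Intervals were assigned to genes and exons with GENCODE M21 (basic set) and counts were summed per gene over exonic and over intronic intervals; an interval touching an exon was exonic. Reads over 2 intervals or with several alignments may be missing from the counts. edgeR 4.0.16 (R 4.3.3; filterByExpr, quasi-likelihood F-test) was fitted to the 7 libraries by group, for 25141 sums, 192964 intervals, and 7670 genes with a mean of at least 10 counts in both regions (intron over exon). Library sizes were scaled by TMM factors from 170869 intervals outside the authors' filtered list, and the spike-in was not used for scaling. Adjusted p under 0.05 over all rows counted as a change; CPM uses the scaled library sizes. Values over few reads carry 95% exact intervals or a floor of 3 counts, which reflect counting error alone: without molecular identifiers, reads may repeat the same molecule. The scripts were tested on simulated data.

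The members, the other lists and the rule for named genes were chosen with earlier results of these data known. Named were, in each group, the 4 genes with the highest exon CPM per kb, the 3 with the highest intron CPM, the 2 largest called rises and falls of exon and of intron sums in SAFB DKO against EZH2 KO, the short-list peaks, the 2 highest exonic and intronic intervals, and the called extremes of each other list (1 of them is not reported here); further genes stand for their roles. Both SAFB DKO labels carry the same replicate number, so these were numbered in accession order. Alternatives covered scaling (TMM over all features, column totals, DESeq2 1.42.0), filters, the definition of an exon, listed peaks, limma 3.58.1, the replicate block and each library left out.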

Additional observations from a re-analysis of the deposited data

How the results depend on the processing

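In none of the alternatives tried did an exon sum of either group fall in SAFB DKO, or rise in EZH2 KO against WT, except that Pfkfb4 fell in SAFB DKO against EZH2 KO without EZH2 KO replicate 2 (-1.04). The counts of called genes stayed within 1.5 times except as follows. With column totals, 14 of the other low-oxygen genes fell in EZH2 KO against WT (9 as reported), and with exons of the full annotation 5 glycolytic intron sums were called there (8 as reported). Leaving out single libraries gave 8 to 16 called exon sums and 2 to 5 intron sums of the other low-oxygen genes in SAFB DKO against WT (14 and 4 as reported). For introns over exons it gave 3 to 12 calls of the other low-oxygen genes in SAFB DKO against WT (9 as reported) and 2 to 5 of glycolytic enzymes in EZH2 KO against WT (4 as reported). The cause was not tested. Among the single values, 4341 comparisons with an alternative kept their call or lack of one, while 122 passed and 153 lost the threshold. A further 3, called in either fit, reversed direction, all with the full annotation. These were the Gapdh exon sum in EZH2 KO against WT (-0.52) and Slc16a3 introns over exons. The latter gave -2.29 in EZH2 KO against WT and 1.45 in SAFB DKO against EZH2 KO. A change of sign without a call in either fit counted among the 4341. Column totals moved the median exon change of all genes by 0.23, -0.25 and 0.48 for SAFB DKO against WT, EZH2 KO against WT and SAFB DKO against EZH2 KO, DESeq2 by 0.28, -0.02 and 0.30, and TMM over all features by 0.09, -0.13 and 0.22.

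With the replicate block in WT and EZH2 KO, 10 glycolytic and 9 other exon sums and 7 and 2 intron sums were called. Deviations of same-numbered libraries correlated at 0.05 and -0.001. With 2 EZH2 KO libraries both values rest on the same EZH2 KO deviations, so they cannot show whether same-numbered libraries share more than a number. The lower depth of EZH2 KO limits genes with few reads.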
